A study of Mus musculus with 12 samples.

Results

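The MHC class II genes of mouse colonic crypts were described here as 7 genes, H2-Aa, H2-Ab1, H2-Eb1, H2-DMa, H2-DMb1, H2-DMb2 and Cd74, chosen by their symbols from the 55471 genes listed and read in RNA-seq libraries of 12 mice, 1 library per mouse. Of the 7, 6 passed the filter on low counts, with which 14610 genes were tested, and H2-DMb2 did not. The 4 groups held 3 mice each and were named CBPWTp53-floxed, CBPAAp53-floxed, CBPWTp53ΔIEC and CBPAAp53ΔIEC. All mice were labelled C57BL/6J, and all carried floxed alleles of p53 (Trp53). In CBPAA mice, serines of the coactivator CBP (gene Crebbp) that are otherwise phosphorylated were replaced by alanines in every cell of the body, through a knock-in made in embryonic stem cells, for which the study's methods name both a 129 and a C57BL/6N origin, and then backcrossed. In p53ΔIEC mice, a Cre recombinase driven by the Villin promoter removed p53 in intestinal epithelial cells, which are found in both the small and the large intestine, and p53-floxed mice kept it. Crypts were released from the colon of 8-week-old mice with 30 mM EDTA, which leaves most cells of the underlying tissue behind.

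MHC class II molecules present peptides of endocytosed proteins to CD4+ T cells. Each consists of an α and a β chain (H2-Aa with H2-Ab1 for I-A, H2-Ea with H2-Eb1 for I-E), is held by the invariant chain Cd74 until it reaches the endosome, and is loaded there with peptide by the H2-DM dimer (H2-DMa with H2-DMb1 or H2-DMb2). Dendritic cells, macrophages and B cells express these genes constitutively, and intestinal epithelial cells can express them too, in particular under interferon-γ (IFN-γ). Their shared switch is Ciita, a coactivator that does not bind DNA itself but is recruited by factors on the X box (RFX) and the Y box (NF-Y) of the promoters, and that is known to work with CBP.

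The 6 class II genes other than Cd74 lie within 197.134 kb of chromosome 17 of GRCm38 (GENCODE annotation, chr17:34119541-34316674). Promoter windows of 300 bases, 250 of them before the start of the transcript, were taken from RefSeq (GRCm38.p6) and found for 5 of the 7 genes, H2-DMa with more than 1 window. They were searched on both strands for the X box core ACNGATG and the Y box core GATTGG, which do not overlap each other. An X core stood in front of a Y core on the same strand, with starts 10 to 40 bases apart, in H2-Eb1, H2-DMb1 and H2-DMb2. The starts were 28 bases apart in H2-Eb1 and 29 in both H2-DMb genes. Among all 32851 windows, 9.85% held the X core, 16.1% held the Y core and 28 windows (0.0852%) held the pair. These 28 windows belonged to 26 genes, and 4 of them were class II genes, H2-Eb2 being the other one. The stretches are shown because the gene with the fewest reads, H2-DMb2, and a transcribed one, H2-DMb1, carried the pair at the same spacing. Capitals mark the X core and the Y core, and of H2-DMb1 only short runs are given because the stretch lies in an exon of a GENCODE transcript.
H2-Eb1 (plus strand, chr17:34305759-34305822): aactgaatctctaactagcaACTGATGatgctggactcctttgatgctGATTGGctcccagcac
H2-DMb2 (plus strand, chr17:34145109-34145173): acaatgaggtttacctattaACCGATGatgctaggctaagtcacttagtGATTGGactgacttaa
H2-DMb1, X box stretch (plus strand, chr17:34153092-34153111): acctagtaACTGATGatgct
H2-DMb1, Y box stretch (plus strand, chr17:34153121-34153140): cactcagtGATTGGtctgac
H2-Aa (minus strand, chr17:34287857-34287921): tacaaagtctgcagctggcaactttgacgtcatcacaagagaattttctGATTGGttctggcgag
In H2-Aa the Y core began 49 bases before the start, and no X core stood on the same strand. The H2-DMa windows held a Y core 199 bases before 1 of the starts and no X core. A match of these letters is a description and not a site of binding.

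The libraries held 11177430 to 18029125 counted reads each, and Trp53 was at 23.3 to 33.5 TPM (a level scaled to gene length and library size) in p53-floxed and at 3.26 to 6.13 TPM in p53ΔIEC libraries. Epithelial genes dominated, with Krt8 at a mean of 5219 TPM and Epcam at 1265 TPM. Of the libraries, 4 stood apart by Fabp6, the ileal bile acid binding protein, which was at 217 TPM in CBPAAp53-floxed replicate 2, 1629 TPM in CBPWTp53ΔIEC replicate 1, 453 TPM in CBPAAp53ΔIEC replicate 1 and 500 TPM in CBPAAp53ΔIEC replicate 3, and at 3.78 to 20.1 TPM in the other 8. Fold changes and the main correlations are given with and without these 4 libraries. The names of the libraries also hold numbers whose meaning the labels do not give, and 2 libraries of different groups share 1 of them. The 4 libraries with the lowest numbers (CBPAAp53ΔIEC replicate 3, CBPWTp53ΔIEC replicate 1 and CBPAAp53-floxed replicates 1 and 2) are among the 5 described next as high in class II genes, and of the other 8 CBPAAp53ΔIEC replicate 1 is. The part of whatever these numbers record was not tested.

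The invariant chain Cd74, which lies apart from the others on the plus strand of chromosome 18 from 60803848 to 60812652, was the most abundant class II transcript, and it differed 99.3-fold between the lowest and the highest library. In CBPWTp53-floxed crypts it was at 12.1, 17.8 and 26.7 TPM (18.9 ± 7.34, mean ± SD, n = 3). CBPAAp53-floxed crypts had 142, 169 and 15.3 TPM (108.9 ± 82.2). CBPWTp53ΔIEC crypts had 415, 4.18 and 16.4 TPM (145 ± 234), and CBPAAp53ΔIEC crypts had 138, 19.7 and 226 TPM (128 ± 104). Cd74 was thus high in 5 libraries, which came from 3 of the 4 genotypes, and each of these genotypes also held at least 1 library within the range of the CBPWTp53-floxed mice or below it. Outside these 5 libraries it did not exceed 26.7 TPM, and within them it was at least 138 TPM. In bulk RNA a larger share of cells that express a gene cannot be told apart from more RNA per cell.

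The chains of I-A, the class II molecule that C57BL/6 mice can assemble, were high in the same 5 libraries as Cd74. H2-Aa, the α chain, was at 4.08, 3.90 and 5.17 TPM in CBPWTp53-floxed, 35.7, 39.2 and 3.97 TPM in CBPAAp53-floxed, 103, 0.792 and 1.54 TPM in CBPWTp53ΔIEC and 26.4, 4.16 and 49.8 TPM in CBPAAp53ΔIEC crypts. Its range of 130.7-fold was the widest of the 6 genes. H2-Ab1, the β chain, was at 6.49, 5.41 and 8.05 TPM, at 47.9, 46.0 and 6.47 TPM, at 103, 6.11 and 8.89 TPM and at 34.8, 9.07 and 52.97 TPM in the same order of groups. The chains of the pair did not stay in 1 ratio: H2-Ab1 was at 7.72 times the level of H2-Aa in CBPWTp53ΔIEC replicate 2 and 5.77 times in replicate 3, and at 0.993 to 2.18 times in the other 10 libraries. These 2 libraries had the lowest H2-Aa of all 12, at 18 and 30 reads, whereas their H2-Ab1, at 94 and 117 reads, lay within or just above the range of CBPWTp53-floxed libraries.

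H2-Eb1, the β chain of I-E, was transcribed without its partner. It was at 3.76, 5.03 and 5.24 TPM in CBPWTp53-floxed, 32.7, 31.4 and 3.98 TPM in CBPAAp53-floxed, 80.5, 2.06 and 4.92 TPM in CBPWTp53ΔIEC and 22.2, 2.38 and 40.4 TPM in CBPAAp53ΔIEC crypts. H2-Ea, the α chain that C57BL/6 mice are known not to transcribe, had 0 reads in every library, which allows up to 3 reads in each. H2-Oa and H2-Ob, the chains of the DM inhibitor H2-O, and H2-Eb2 had at most 3 reads in any library, and none of these 4 genes was tested.

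The peptide-loading genes H2-DMa and H2-DMb1 had the narrowest ranges, 7.45-fold and 16.9-fold. H2-DMb1 was at 4.89, 5.09 and 8.73 TPM in CBPWTp53-floxed, 25.0, 13.6 and 3.68 TPM in CBPAAp53-floxed, 35.3, 2.09 and 5.46 TPM in CBPWTp53ΔIEC and 11.9, 4.69 and 18.01 TPM in CBPAAp53ΔIEC crypts. H2-DMa was at 2.38 to 3.78 TPM in CBPWTp53-floxed, 3.14 to 11.1 TPM in CBPAAp53-floxed, 2.28 to 16.97 TPM in CBPWTp53ΔIEC and 2.68 to 9.24 TPM in CBPAAp53ΔIEC crypts. H2-DMa was at 0.165 to 0.579 times the TPM of H2-Ab1 in the 12 libraries, and H2-DMb1 at 0.916 to 2.31 times that of H2-DMa. H2-DMb2, the second β chain of DM, had 3 reads in all, 1 in each of 3 libraries, where 3 reads in a library would equal 0.229 to 0.392 TPM. H2-DMb1 and H2-DMb2 are close copies, so that reads of 1 may have been lost or counted on the other. H2-DMa overlaps the end of Brd2 on the opposite strand, and whether the counting used the strand was not stated. The other genes that overlap H2-DMa, H2-Eb1 or Cd74 had at most 3 reads in any library.

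**Figure D1:**
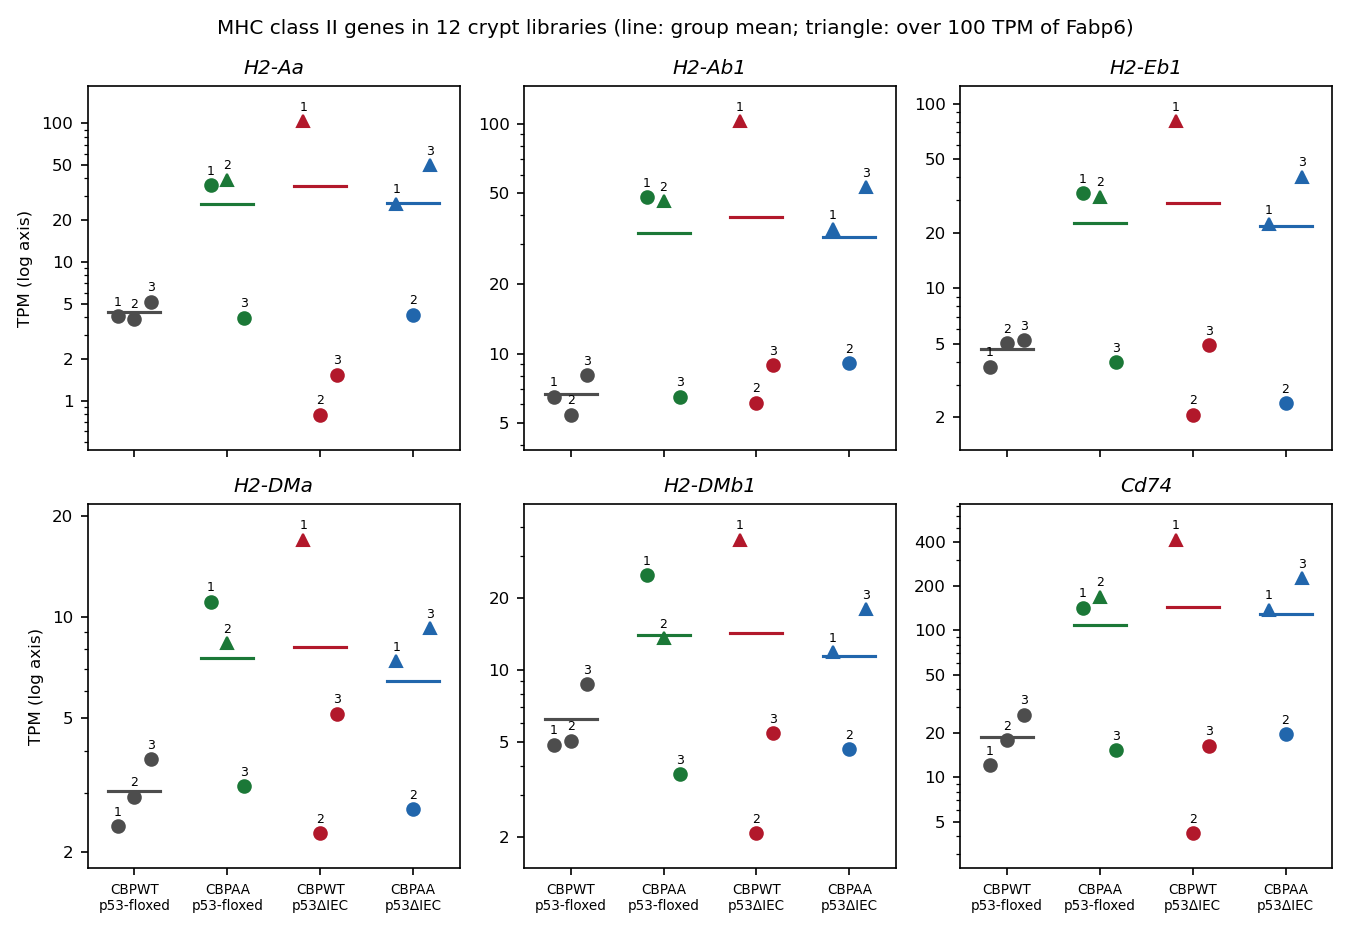
TPM of 6 class II genes (log axes) in the 12 libraries, 1 panel per gene, with groups on the x axis, replicate numbers above the points, group means as lines and triangles for the 4 libraries with over 100 TPM of Fabp6. In each panel the same 5 libraries are the highest (CBPAAp53-floxed 1 and 2, CBPWTp53ΔIEC 1, CBPAAp53ΔIEC 1 and 3), and the 3 CBPWTp53-floxed libraries lie close together.

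The order of the group means was led by CBPWTp53ΔIEC and closed by CBPWTp53-floxed for each of the 6 genes, but the libraries of neighbouring groups in that order overlapped in TPM, except that the lowest CBPAAp53ΔIEC library of H2-Ab1 (9.07 TPM) lay above the highest CBPWTp53-floxed library (8.05 TPM). CBPAAp53-floxed and CBPAAp53ΔIEC crypts lay between them and changed places from gene to gene, with 26.3 ± 19.4 and 26.8 ± 22.8 TPM of H2-Aa and 33.5 ± 23.4 and 32.3 ± 22.1 TPM of H2-Ab1 (SD, n = 3). The lead of CBPWTp53ΔIEC came from 1 mouse: its median of Cd74, 16.4 TPM, was below that of CBPWTp53-floxed (17.8 TPM), while the medians of CBPAAp53-floxed and CBPAAp53ΔIEC were 142 and 138 TPM. Replicate 1 of CBPWTp53ΔIEC was the highest library for all 6 genes, and replicate 2 of the same group was the lowest for all of them except H2-Ab1.

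The genes varied together from mouse to mouse. Pearson's r between the log2 CPM (counts scaled to library size but not to gene length) of any 2 of the 6 genes was 0.910 to 0.983 over the 12 libraries and 0.960 to 0.992 once the group means were removed. Over the 8 libraries without high Fabp6 it was 0.744 to 0.974. The points of such a correlation are libraries that share their depth and tissue content across genes. The SD of log2 CPM within groups was 1.03 for H2-DMa, 1.37 for H2-DMb1, 1.58 for H2-Ab1, 1.97 for H2-Eb1, 2.22 for Cd74 and 2.35 for H2-Aa, where the median of all genes tested was 0.215 and the 99th percentile 1.11. H2-Aa ranked 31 and Cd74 ranked 33 of the 14610 genes by this spread. Over the 8 libraries without high Fabp6 the SD was smaller, from 0.666 for H2-DMa to 1.26 for Cd74 beside a median of 0.144 and a 99th percentile of 0.809 over all genes.

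**Figure D2:**
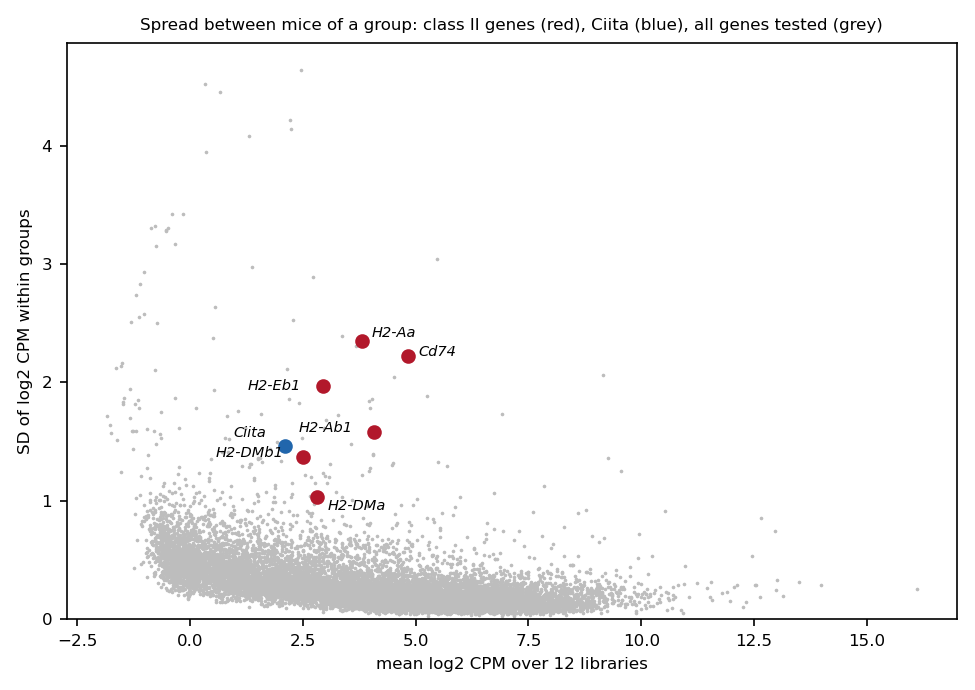
SD of log2 CPM within groups (y axis) against mean log2 CPM (x axis) for the 14610 genes tested (grey), the 6 class II genes (red) and Ciita (blue). The median SD of all genes tested is 0.215, and the 6 class II genes run from 1.03 (H2-DMa) to 2.35 (H2-Aa).

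Whether the CBP genotype or the loss of p53 changed the class II genes was tested with edgeR's quasi-likelihood test on the counts, with Benjamini-Hochberg adjustment over all 14610 genes, and a gene was called where its adjusted p fell under 0.05 and its log2 fold change passed 0.5 in either direction. None of the 6 genes was called in any of the 8 comparisons below, and none had an unadjusted p under 0.05. An unadjusted p under 0.05 was found for 8.04% of all genes in CBPAAp53-floxed vs. CBPWTp53-floxed, 20.9% in CBPWTp53ΔIEC vs. CBPWTp53-floxed, 12.6% in CBPAAp53ΔIEC vs. CBPAAp53-floxed, 3.57% in CBPAAp53ΔIEC vs. CBPWTp53ΔIEC, 21.9% and 2.57% for p53 deletion and CBPAA averaged over the other allele, 10.3% for the interaction and 11.1% in CBPAAp53ΔIEC vs. CBPWTp53-floxed. DESeq2 on all 12 libraries called none of them either.

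In CBPAAp53-floxed vs. CBPWTp53-floxed crypts the 6 genes had positive log2 fold changes, with a median of 2.38 beside 0.01 over all genes. H2-Aa had 2.67 (SE 1.80, adjusted p = 0.683), Cd74 2.61 (SE 1.70, adjusted p = 0.676), H2-Ab1 2.41 (SE 1.31, adjusted p = 0.647) and H2-Eb1 2.35 (SE 1.55, adjusted p = 0.680). The DM genes had smaller values, 1.39 (SE 0.79) for H2-DMa and 1.24 (SE 1.07) for H2-DMb1. The count of 0 called genes among the 6 stood beside 0% of all genes in this comparison. In CPM the libraries of the 2 groups did not overlap for H2-Ab1 and H2-DMa, as was the case for 19.4% of all genes, and for H2-Ab1 the gap was between 7.664 and 7.667 CPM. In TPM both genes overlapped. Without the 4 libraries high in Fabp6, of which CBPAAp53-floxed replicate 2 is 1, the log2 fold changes were 1.22 to 2.19 and rested mainly on replicate 1 of CBPAAp53-floxed. Replicate 3 lay within the range of CBPWTp53-floxed mice in TPM for each gene except H2-DMb1, which lay below it. In CPM it lay slightly above that range for H2-Ab1 and H2-DMa and below it for H2-DMb1.

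In CBPWTp53ΔIEC vs. CBPWTp53-floxed crypts 0 of the 6 genes were called, where 3.15% of all genes were, and no gene separated the groups, as 30.8% of all genes did. The fitted log2 fold changes were the largest of the 5 pairwise comparisons for each of the 6 genes, 3.28 (SE 1.83, adjusted p = 0.346) for H2-Aa, 3.21 (SE 1.74, adjusted p = 0.332) for Cd74 and 2.80 (SE 1.32, adjusted p = 0.272) for H2-Ab1. They rested on replicate 1 of CBPWTp53ΔIEC. Without this library H2-Aa had -2.03, Cd74 -1.03, H2-DMb1 -0.86, H2-Eb1 -0.56, H2-Ab1 0.07 and H2-DMa 0.16, none of them called.

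With p53 deleted on the CBPAA background, in CBPAAp53ΔIEC vs. CBPAAp53-floxed crypts, the log2 fold changes of the 6 genes lay between -0.35 and 0.16 and 0 were called (0.0274% of all genes), with no gene whose groups did not overlap (15.0% of all genes). Their SE, 1.62 for H2-Aa and 1.56 for Cd74, leaves changes of several fold in either direction undetectable with 3 mice per group. Without the 4 libraries high in Fabp6, which leaves 1 library of CBPAAp53ΔIEC, H2-Eb1 had -2.99, H2-Aa -2.30, Cd74 -2.04, H2-DMb1 -1.67, H2-Ab1 -1.64 and H2-DMa -1.49, none of them called. CBPAAp53ΔIEC vs. CBPWTp53ΔIEC gave -0.66 to -0.44 with 0 called (0.00684% of all genes) and 0 not overlapping (9.26%), and without replicate 1 of CBPWTp53ΔIEC it gave 0.92 to 4.65. The interaction, which tests whether p53 deletion acted differently in the CBP genotypes, was -3.32 (SE 2.42, adjusted p = 0.618) for H2-Aa and -3.05 (SE 2.30, adjusted p = 0.629) for Cd74, with 0 of 6 called beside 0.00684% of all genes. Without replicate 1 of CBPWTp53ΔIEC it was 1.98 for H2-Aa and 1.19 for Cd74, and without the 4 libraries high in Fabp6 it was -0.27 and -1.003. Averaged over both CBP genotypes, p53 deletion gave 0.52 to 1.68 with 0 of 6 called (3.50% of all genes). All 6 values were negative without replicate 1 of CBPWTp53ΔIEC (H2-Aa -1.04, Cd74 -0.43) and without the 4 libraries high in Fabp6 (H2-Aa -2.16, Cd74 -1.54). Averaged over both p53 states, CBPAA gave 0.37 to 1.08 with 0 of 6 called (0.00684%). Without replicate 1 of CBPWTp53ΔIEC this rose to 3.66 for H2-Aa, 3.20 for Cd74 and 2.56 for H2-Eb1, and without the 4 libraries it was 2.05 for H2-Aa and 1.55 for Cd74, again with 0 called. Mice that differ in both alleles, CBPAAp53ΔIEC vs. CBPWTp53-floxed, gave 0.89 to 2.77 with 0 of 6 called (0.0205%), and the libraries did not overlap in CPM for 1 gene, H2-Ab1 (21.1% of all genes). These comparisons share libraries, so their values are not independent of each other.

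**Figure D3:**
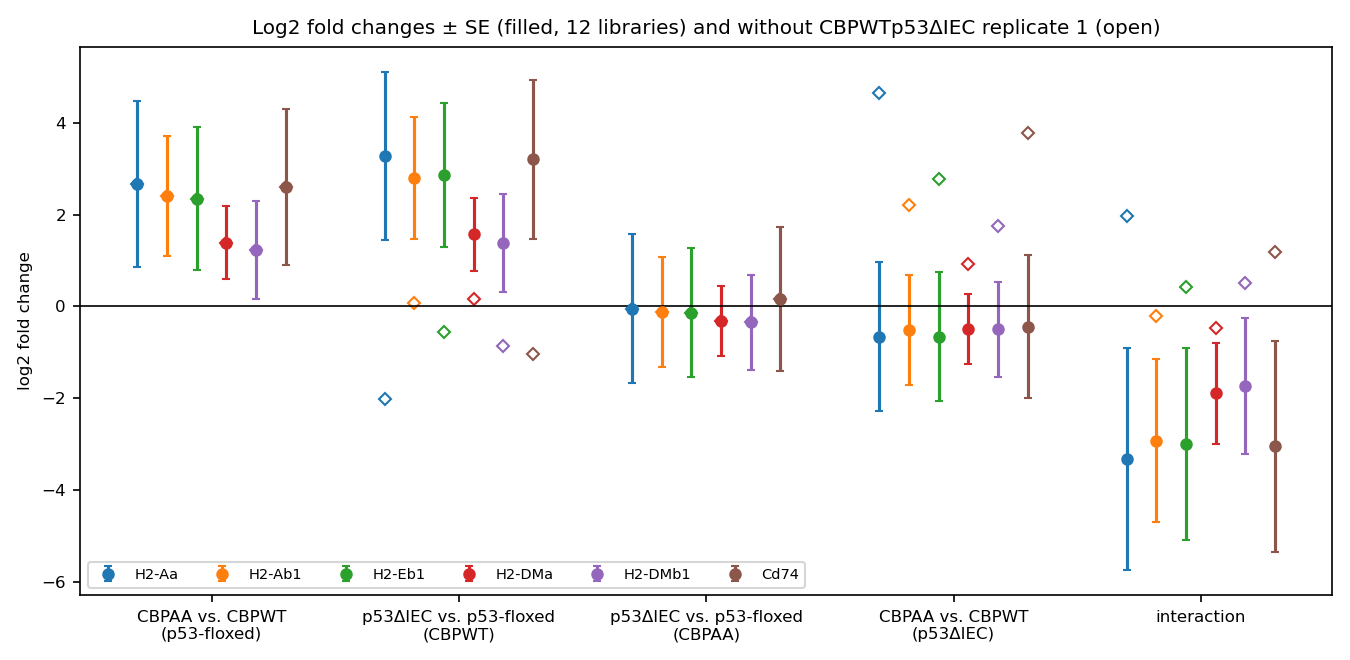
Log2 fold changes (y axis) of 6 class II genes in 4 comparisons and the interaction (x axis), as filled points with bars of 1 SE for all 12 libraries and as open diamonds without replicate 1 of CBPWTp53ΔIEC. Leaving out that library moves H2-Aa in the p53 comparison of CBPWT mice from 3.28 to -2.03 and in the CBP comparison of p53ΔIEC mice from -0.66 to 4.65.

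The class II coactivator Ciita (chromosome 16, plus strand, 10480059 to 10528418) was at 0.790, 1.15 and 1.15 TPM in CBPWTp53-floxed, 5.90, 2.32 and 0.568 TPM in CBPAAp53-floxed, 3.29, 0.228 and 0.307 TPM in CBPWTp53ΔIEC and 1.28, 0.484 and 2.42 TPM in CBPAAp53ΔIEC crypts. The 5 libraries with high Cd74 also had the 5 highest values of Ciita. Over the 12 libraries, Ciita had r = 0.889 with the mean of the 6 genes' standardized log2 CPM, rank 25 of all genes that are no member, and r = 0.967 (rank 4) once group means were removed. Over the 8 libraries without high Fabp6 its r was 0.909. It was not called in any comparison, with a log2 fold change of 1.54 (SE 1.12, adjusted p = 0.701 from edgeR) in CBPAAp53-floxed vs. CBPWTp53-floxed. The other 12 genes of a list of class II transcription factors and cofactors, among them the RFX and NF-Y subunits, Crebbp and Ep300, had narrower ranges than Ciita. Hdac1 was at 77.1 to 123 TPM, Nfyc at 19.97 to 31.3 TPM, Kat2b at 18.5 to 30.7 TPM and Hdac2 at 16.4 to 24.1 TPM. Rfx5 was at 7.07 to 13.2 TPM, Nfya at 5.53 to 16.1 TPM and Creb1 at 4.53 to 10.96 TPM. The r of the 13 genes with that mean of the class II genes was -0.74 (Creb1) to 0.889 (Ciita), with a median of -0.28. Of the 13 genes, 0 were called in any comparison, beside 0% to 3.50% of all genes over the comparisons. Their median log2 fold change was -0.02 in CBPAAp53-floxed vs. CBPWTp53-floxed and -0.04 in CBPWTp53ΔIEC vs. CBPWTp53-floxed, beside 0.01 over all genes in both.

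IFN-γ itself (Ifng) had at most 1 read in any library, while its receptor chains Ifngr1 and Ifngr2 were at 143 to 204 and 90.9 to 128 TPM. Of 11 tested genes of the signalling list, 0 were called in any comparison, beside 0% to 3.50% of all genes over the comparisons. All 22 genes of a list induced by IFN-γ were tested. In CBPAAp53-floxed vs. CBPWTp53-floxed, 22 of 22 had positive log2 fold changes (median 1.05 beside 0.01) and 0 were called (0% of all genes). No gene of the list separated these 2 groups in CPM, as 19.4% of all genes did. The summed TPM of the list was 643, 258 and 114 in CBPAAp53-floxed and 143, 211 and 199 in CBPWTp53-floxed libraries. In CBPWTp53ΔIEC libraries it was 233, 86.9 and 107, and in CBPAAp53ΔIEC libraries 128, 142 and 172, in the order of replicates. In CBPWTp53ΔIEC vs. CBPWTp53-floxed 8 of 22 were positive (median -0.24), and in CBPAAp53ΔIEC vs. CBPAAp53-floxed 1 of 22 was (median -1.28). In either, 0 were called, beside 3.15% and 0.0274% of all genes. Gbp2, a guanylate-binding GTPase of cell-autonomous immunity, was at 15.0, 28.8 and 29.9 TPM in CBPWTp53-floxed, 184, 32.0 and 11.3 TPM in CBPAAp53-floxed, 23.5, 4.51 and 4.66 TPM in CBPWTp53ΔIEC and 6.27, 6.96 and 12.4 TPM in CBPAAp53ΔIEC crypts. Its order of libraries was not that of Cd74: replicate 1 of CBPAAp53-floxed stood alone, and both CBPAAp53ΔIEC libraries with high Cd74 were below every CBPWTp53-floxed library. The immunity-related GTPases Igtp, Irgm1 and Irgm2 were also highest in CBPAAp53-floxed replicate 1, at 106, 79.0 and 78.9 TPM. Ido1 of the same list was highest in CBPWTp53ΔIEC replicate 1, at 11.6 TPM. Over the 12 libraries, the r of Gbp2 with the mean of the class II genes' standardized log2 CPM was 0.515, and 0.783 once group means were removed. Over the 12 libraries, the r of the 22 genes was 0.191 (Gbp5) to 0.945 (Nos2), with a median of 0.563. Gbp5 was the only gene of the list called, lower with p53 deletion averaged over both CBP genotypes (log2 fold change -2.50, SE 0.61, adjusted p = 0.0366 from edgeR). In that comparison 3.50% of all genes were called. Gbp5 was near the floor, with a median of 0.189 TPM. Its highest value was 2.27 TPM (75 reads), in CBPAAp53-floxed replicate 1. Of 13 antigen-processing genes tested (Lamp1, Ctss, Ifi30 and Ctsb the most abundant) 0 were called in any comparison, beside 0% to 3.50% of all genes. Ctss, the protease that trims the invariant chain, stayed between 215 and 319 TPM in all libraries.

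MHC class I was abundant throughout. H2-K1 was at 564 to 952 TPM and H2-D1 at 589 to 890 TPM. B2m, the light chain of class I, was at 892 to 1619 TPM, and its r with the class II pattern was 0.928 over 12 and 0.858 over the 8 libraries. Of 17 class I genes tested, only the chaperone Calr was called, higher in CBPWTp53ΔIEC vs. CBPWTp53-floxed (log2 fold change 0.65, SE 0.16, adjusted p = 0.0413 from edgeR), where 3.15% of all genes were called. In CBPAAp53-floxed vs. CBPWTp53-floxed 16 of the 17 had positive log2 fold changes, with a median of 0.33 beside 0.01 over all genes. In CPM 7 of the 17 separated these 2 groups, as 19.4% of all genes did. The r of the 17 genes with the class II pattern was -0.23 (Calr) to 0.928 (B2m), with a median of 0.754. Of 10 costimulatory and checkpoint ligands, 5 were tested and 0 called in any comparison, beside 0% to 3.50% of all genes. Cd80, Cd86 and Cd40, which dendritic cells and B cells use to costimulate T cells, had at most 2 reads in any library.

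The genes whose pattern was most like that of the class II genes, by r with the mean of their standardized log2 CPM over the 12 libraries, were Nos2 (0.945), Plcb3, Tnfaip8l3, Pim1, B2m, Nle1, Clca4b, G6pc1, Upp1 and Tnfrsf1a (0.906). Nos2, the inducible nitric oxide synthase, is on the list induced by IFN-γ. It was at 1.44, 1.07 and 1.01 TPM in CBPWTp53-floxed and reached 26.7 TPM in CBPWTp53ΔIEC replicate 1 and 13.7 TPM in CBPAAp53ΔIEC replicate 3. It was at 9.51 TPM in CBPAAp53-floxed replicate 2 and 6.90 TPM in CBPAAp53ΔIEC replicate 1, so its 4 highest libraries were the 4 high in Fabp6. In CBPAAp53-floxed replicate 1 it was at 2.90 TPM. With group means removed the list was Hectd3 (0.974), Plcb3, Baiap2l1, Ciita, Habp2, Ksr1, Trafd1, Frg1, Ugcg and Ido1 (0.956). G6pc1 of the first list and Habp2 of the second were near the floor, with medians of 0.035 and 0.031 TPM. Plcb3 was in both, and over the 8 libraries without high Fabp6 its r was 0.986 and that of Nos2 0.810.

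Markers of other cells were read beside these values. The 10 genes of the dendritic cell list had at most 10 reads in every library and summed to 0.209 to 0.619 TPM, with Flt3 and Xcr1 at no more than 4 reads and Cd209a at 0 in all libraries. The B cell list summed to 0.730 to 1.99 TPM, with Cd79a and Pax5 at no more than 3 reads and Fcmr and Cr2 at 0. Of the macrophage list, Adgre1 had at most 1 read and Fcgr1 none, C1qb and C1qc had at most 4, and most of its sum of 56.8 to 102 TPM was Cd14 (45.4 to 83.1 TPM). C1qa was at 0.440 to 20.2 TPM, highest in CBPAAp53ΔIEC replicate 1 and CBPWTp53ΔIEC replicate 1. Of its 12 genes 6 passed the filter, the others being Cd68 (1.23 to 5.59 TPM), Lyz2 (0.464 to 1.63 TPM), Ms4a7 and Mrc1 (each under 1 TPM), and their r with the class II pattern was -0.59 (Ms4a7) to 0.568 (C1qa). The leukocyte list (Ptprc, Laptm5 and others) summed to 14.3 to 20.2 TPM in CBPWTp53-floxed, 15.6 to 22.3 TPM in CBPAAp53-floxed, 14.2 to 19.99 TPM in CBPWTp53ΔIEC and 17.02 to 23.6 TPM in CBPAAp53ΔIEC crypts. The r of its 8 tested genes with the class II pattern was -0.57 (Fcer1g) to 0.551 (Laptm5) with a median of 0.348. The T and innate lymphocyte list was highest, at 45.8 TPM, in CBPAAp53ΔIEC replicate 3 and at 11.6 to 29.2 TPM elsewhere, and the r of its 11 tested genes was 0.355 (Cd3g) to 0.690 (Gzma) with a median of 0.585. Plasma cell genes summed to 150.4 to 226 TPM, of which Sdc1, which epithelial cells express too, held 144 to 204 TPM and Igkc 1.51 to 17.6 TPM. Endothelial genes summed to 3.46 to 6.22 TPM and stromal genes to 4.24 to 8.36 TPM. The r of 10 tested epithelial genes with the class II pattern was -0.13 (Cdh1) to 0.815 (Cldn7), with a median of 0.568. That of 12 tested colonocyte genes was -0.78 (Muc2) to 0.643 (Aqp8), with a median of -0.0027. Of these lists, of the epithelial genes and of the colonocyte genes (summed to 12409 to 26697 TPM), edgeR called the stromal receptor Pdgfrb (log2 fold change -0.97, adjusted p = 0.0344) and the acute-phase gene Saa1 (-1.22, adjusted p = 0.0405) in CBPWTp53ΔIEC vs. CBPWTp53-floxed. Averaged over both CBP genotypes, p53 deletion gave -0.86 for Pdgfrb, -1.14 for Saa1 and 0.62 for the carbonic anhydrase Car1, all called. No marker of a leukocyte list was called in any comparison, beside 0% to 3.50% of all genes over the comparisons. The part of these cells in the class II values was not tested.

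Small intestinal transcripts moved with the class II genes in 4 of the 5 libraries that were high in them. Apoa1, an apolipoprotein of small intestinal enterocytes, was at 451 TPM in CBPAAp53-floxed replicate 2, 1704 TPM in CBPWTp53ΔIEC replicate 1, 143 TPM in CBPAAp53ΔIEC replicate 1 and 887 TPM in CBPAAp53ΔIEC replicate 3, and at 0.316 to 3.88 TPM in the other 8 libraries. Its r with the class II pattern was 0.872, that of Fabp6 was 0.743 and that of the Paneth cell defensin Defa24 was 0.726. Over the other 8 libraries the r of Apoa1, Fabp6 and Defa24 was 0.523, -0.67 and -0.24. Further genes of their lists were not followed there, and Fabp6 itself set which libraries were left out. Over the 12 libraries, r was 0.639 (Cyp3a11) to 0.882 (Anpep) for 14 tested enterocyte genes, with a median of 0.803. For 10 tested genes of the Paneth cell list it was -0.005 (Nupr1) to 0.827 (Defa26), with a median of 0.741. The list of small intestinal enterocytes summed to 1243 to 1593 TPM in CBPWTp53-floxed, 1306 to 3432 TPM in CBPAAp53-floxed, 1173 to 7262 TPM in CBPWTp53ΔIEC and 810.5 to 4366 TPM in CBPAAp53ΔIEC crypts. The Paneth cell list summed to 2527 to 4328, 4671 to 12492, 1774 to 23144 and 739 to 10207 TPM in the same order. Of these sums Ang4 held 299 to 11777 TPM and Nupr1 256 to 629 TPM. The colon lacks Paneth cells, and CBPWTp53-floxed libraries had 0 TPM of Defa24 and at most 0.361 TPM of Lyz1. The library at 12492 TPM, CBPAAp53-floxed replicate 3, had 23.1 TPM of Defa24 and 2.60 TPM of Lyz1. The sum of this list is therefore not a measure of Paneth cells. The part of these transcripts' source in the class II values was not tested. The fifth library, CBPAAp53-floxed replicate 1, had 3.25 TPM of Apoa1, 3.78 TPM of Fabp6 and 1.92 TPM of Defa24, with 35.7 TPM of H2-Aa and 142 TPM of Cd74.

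**Figure D4:**
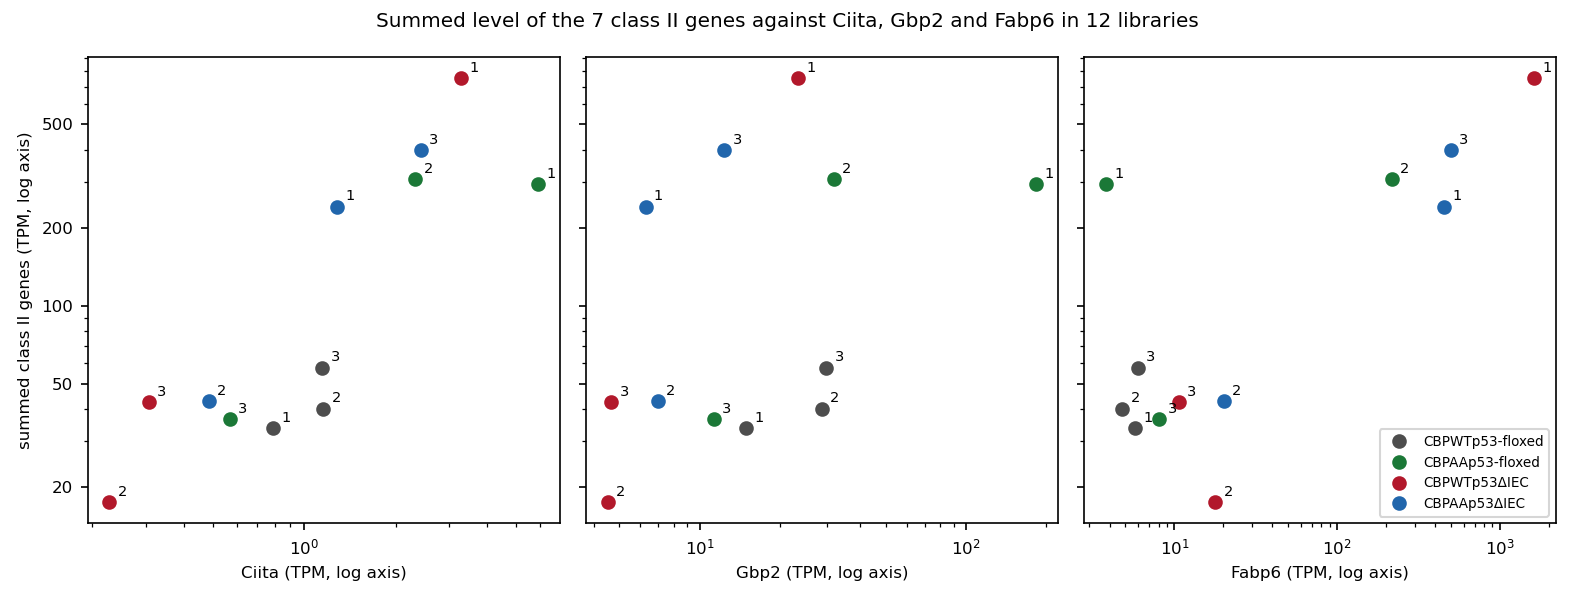
Summed TPM of the 7 class II genes (y axis, log) against Ciita, Gbp2 and Fabp6 (x axes, TPM, log) in the 12 libraries, coloured by group and numbered by replicate. The sum runs from 17.5 TPM (CBPWTp53ΔIEC 2) to 754 TPM (CBPWTp53ΔIEC 1), and CBPAAp53-floxed 1 joins the high libraries on the Ciita axis but lies at the low end of the Fabp6 axis and alone at the high end of the Gbp2 axis.

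**Figure D5:**
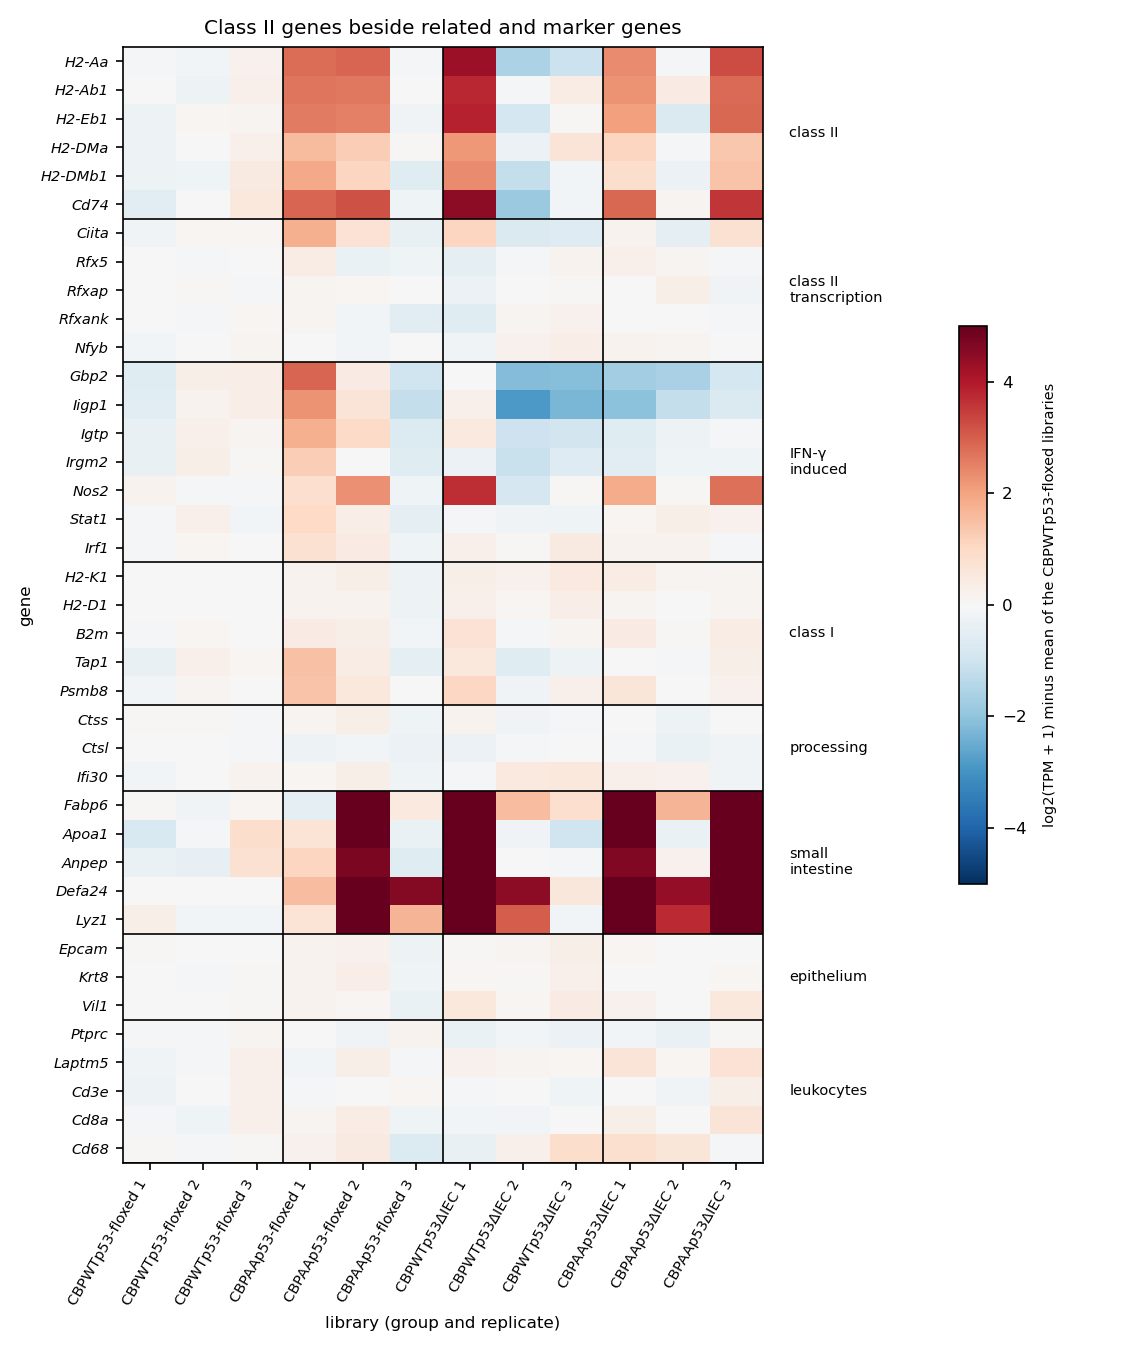
Difference of log2(TPM + 1) from the mean of the 3 CBPWTp53-floxed libraries for the class II genes and genes of related and marker lists (rows, grouped by list) in 12 libraries (columns), with colours capped at a difference of 5. The rows beyond the class II genes were picked from the lists after their values were seen, and the upper block shows the 5 libraries high in class II genes, 4 of which are also high in the small intestinal block.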

How the data were processed

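The authors deposited 1 table of the series with raw counts per gene and library and TPM per gene and library. Per the labels, reads of TruSeq Stranded mRNA libraries, sequenced on a NovaSeq instrument, were processed with fastp 0.20.0, FastQC 0.11.9, HISAT2 2.1.0, SAMtools 1.9 and featureCounts (Subread 2.0.1) on GRCm38. The strand setting of the counting is not given in the sources used here. The authors' own log2 fold changes and p-values for 5 comparisons (15 columns) were not used.

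Groups were taken from the titles of the samples. Genes were kept by filterByExpr (at least 10 counts) and scaled by TMM, and a robust quasi-likelihood model of the 4 groups was fitted over 12 libraries with edgeR 4.0.16 (R 4.3.3), after tests on simulated data. Adjusted p-values are Benjamini-Hochberg over 14610 genes, and SE were derived from the F statistic. Non-overlap was judged in CPM. Alternatives used DESeq2 1.42.0, its size factors, other count filters, a block for the replicate number, calls without the fold cutoff, fits that left out 1 library at a time and fits on the groups compared only. A fit without the 4 libraries over 100 TPM of Fabp6, a fit without the robust option and the comparison of mice that differ in both alleles were added after seeing the data. TPM was used for levels and CPM for correlations. Of each of 20 gene lists, genes called in any comparison and those with the highest mean TPM were named, further genes after their values were seen. Sequences came from RefSeq windows. Figures used matplotlib 3.10.9 in Python 3.11.15. The members, lists and tests were chosen with earlier results of these data known. Depth was 11177430 to 18029125 counts per library. With 1 library per mouse, p-values set a difference between groups against the spread between mice, as edgeR estimates it over the 4 groups and moderates it across genes.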

Additional observations from a re-analysis of the deposited data

How the results depend on the processing

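Under 21 alternatives for the pairwise comparisons, and 20 for the averaged effects and the interaction, the number of class II genes called stayed at 0, with adjusted p between 0.0993 (H2-Ab1 in CBPWTp53ΔIEC vs. CBPWTp53-floxed, DESeq2) and 1. Of 990 log2 fold changes over these alternatives, 930 kept their direction and 60 changed sign. The alternative without the fold cutoff used the fold changes of the main fit, so its values among the 930 could not change. In CBPAAp53-floxed vs. CBPWTp53-floxed none changed sign. With 3 mice per group and the spread between them, changes of several fold in these genes could not be detected.

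With each library left out in turn, CBPAAp53ΔIEC vs. CBPAAp53-floxed ranged from -0.58 to 0.70 for Cd74, -0.90 to 0.46 for H2-Aa, -0.72 to 0.32 for H2-Ab1, -0.70 to 0.062 for H2-DMa, -0.85 to 0.22 for H2-DMb1 and -0.99 to 0.39 for H2-Eb1. CBPWTp53ΔIEC vs. CBPWTp53-floxed ranged from -1.03 to 3.79 for Cd74, -2.03 to 3.86 for H2-Aa, -0.86 to 1.93 for H2-DMb1 and -0.56 to 3.44 for H2-Eb1. CBPAAp53ΔIEC vs. CBPWTp53ΔIEC ranged from -1.18 to 3.79 for Cd74, -1.51 to 4.65 for H2-Aa, -1.10 to 2.22 for H2-Ab1, -0.97 to 0.92 for H2-DMa, -1.04 to 1.74 for H2-DMb1 and -1.51 to 2.77 for H2-Eb1. The averaged effect of p53 deletion ranged from -0.43 to 1.97 for Cd74, -1.04 to 1.91 for H2-Aa, -0.028 to 1.60 for H2-Ab1, -0.074 to 0.87 for H2-DMa, -0.60 to 0.81 for H2-DMb1 and -0.35 to 1.65 for H2-Eb1. The interaction ranged from -3.78 to 1.19 for Cd74, -4.18 to 1.98 for H2-Aa, -2.27 to 0.51 for H2-DMb1 and -3.86 to 0.42 for H2-Eb1.

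Without the 4 libraries over 100 TPM of Fabp6, chosen after seeing the data, CBPAAp53ΔIEC keeps 1 library, which is assumed to vary like the other groups. CBPWTp53ΔIEC vs. CBPWTp53-floxed then gave -2.03 for H2-Aa, -0.56 for H2-Eb1, -0.87 for H2-DMb1 and -1.04 for Cd74. CBPAAp53ΔIEC vs. CBPAAp53-floxed gave -2.04 for Cd74, and from -2.99 to -1.49 over the 6 genes. CBPAAp53ΔIEC vs. CBPWTp53ΔIEC gave 1.92 for H2-Aa, 0.35 for H2-Ab1, 0.42 for H2-DMb1 and 1.05 for Cd74. The averaged effect of p53 deletion was -2.16 for H2-Aa, -0.78 for H2-Ab1, -1.78 for H2-Eb1, -0.67 for H2-DMa, -1.27 for H2-DMb1 and -1.54 for Cd74. CBPAAp53ΔIEC vs. CBPWTp53-floxed gave -0.11 for H2-Aa, -1.02 for H2-Eb1, -0.22 for H2-DMa and -0.45 for H2-DMb1.

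The deviations from the group means of libraries with the same replicate number had r of -0.526 to 0.548 between groups. These values do not settle whether the numbers pair the mice. With the replicate number as a block, CBPAAp53ΔIEC vs. CBPAAp53-floxed gave -0.070 for Cd74, and CBPAAp53ΔIEC vs. CBPWTp53ΔIEC gave 0.52 for H2-Aa, 0.20 for H2-Ab1, 0.13 for H2-Eb1, 0.043 for H2-DMb1 and 0.48 for Cd74. The cause of these changes of sign was not tested. Over all genes, the number called in CBPWTp53ΔIEC vs. CBPWTp53-floxed was 460 and ran from 1 to 1729 over the alternatives, and in CBPAAp53-floxed vs. CBPWTp53-floxed it was 0 and ran from 0 to 42.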

Other observations

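Ciita lies on chromosome 16, as does Crebbp, the gene of CBP that carries the knock-in, at a distance of 6.27 Mb.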
